A study of Mus musculus with 16 samples.

Results

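The cytosolic sulfotransferases are described here in mouse liver by 10 genes, Sult1a1, Sult1b1, Sult1d1, Sult1e1, Sult2a1, Sult2a2, Sult2a7, Sult2a8, Sult3a1 and Sult5a1, chosen by symbol from the 24082 Ensembl genes of the deposited table. Liver RNA was sequenced from 16 female C57Bl6/J mice aged 9 to 11 weeks, in 4 groups of 4. Pair control mice were pair-fed a liquid diet with vehicle, and Pair IMC mice received the same diet with iodomethylcholine (IMC), a small molecule inhibitor of the choline trimethylamine lyase of gut microbes, at 0.06% wt/wt. EtOH control mice were fed a liquid diet in which ethanol was raised stepwise to 6% vol/vol over 25 days, and EtOH IMC mice received this diet with IMC at the same dose. In the study, ethanol-fed mice given IMC ate less and weighed less than those given vehicle. The study also marked a body weight difference between pair-fed mice with and without IMC. Neither can be told apart here from other effects of IMC.

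Sulfotransferases of the cytosol transfer the sulfonate group of 3'-phosphoadenosine 5'-phosphosulfate (PAPS) to a hydroxyl or amino group of a small molecule, which makes the product more soluble in water and easier to excrete. Members of the Sult1 branch act mainly on phenols, catecholamines, thyroid hormones and oestrogens, and those of the Sult2 branch on hydroxysteroids and bile acids. In rodent liver several of them differ between the sexes, and in mice several, but not all, of the Sult2a and Sult3a genes are higher in females. All mice here were female, so the sexes were not compared.

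The Sult2a genes lie together on chromosome 7 and differ by few bases in part of their length, so the first set of sequences shows how far reads can tell them apart. Positions 121 to 180 of the Sult2a1 coding sequence (GENCODE vM21, GRCm38) are given with the aligned stretch of 5 other genes of the cluster, in coding direction, and capitals mark bases that differ from Sult2a1. The stretch encodes part of the loop that holds the phosphosulfate of the cofactor.
Sult2a1: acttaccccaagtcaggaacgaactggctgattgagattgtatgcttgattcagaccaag
Sult2a2: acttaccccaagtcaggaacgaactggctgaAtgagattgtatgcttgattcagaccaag
Sult2a5: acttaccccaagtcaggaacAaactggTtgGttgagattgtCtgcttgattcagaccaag
Sult2a3: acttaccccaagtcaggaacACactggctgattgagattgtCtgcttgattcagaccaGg
Sult2a7: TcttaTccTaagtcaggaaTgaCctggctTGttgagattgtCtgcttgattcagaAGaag
Sult2a8: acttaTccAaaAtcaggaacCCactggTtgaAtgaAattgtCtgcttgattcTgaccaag
Sult2a2 differed from Sult2a1 by 1 base here, Sult2a3 and Sult2a5 by 4, and Sult2a7 and Sult2a8 by 10. Over all aligned coding bases, identity to Sult2a1 was 97.9% for Sult2a2, 94.9% for Sult2a5, 93.7% for Sult2a3, 81.6% for Sult2a7 and 69.4% for Sult2a8. Of the distinct stretches of 100 bases, the length of a read, in the transcripts of Sult2a2, 34.6% were also found in another gene, most often Sult2a5. The share was 11.4% for Sult2a1 and 1.75% for Sult1a1, and 0 for the other 7 members. Of Sult2a5, which is not a member, 16.6% were shared, most often with Sult2a2 (12.8%). Values of Sult2a1, Sult2a2 and Sult2a5 are therefore uncertain to the extent that shared reads were assigned to one or another. The identifier of Sult2a2 (ENSMUSG00000070811) was also listed as Sult2a4 in the table.

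The second set shows the 250 bases before the RefSeq start sites (GRCm38.p6, reverse strand) of Sult2a8, the member with the largest difference with IMC in ethanol-fed mice, and of Sult1b1, whose level was most like it among the members. Each is written 5′ to 3′, and capitals mark AGGTCA or its reverse complement TGACCT, the half-site that many nuclear receptors bind.
Sult2a8, upstream start (chr7:14446588-14446837): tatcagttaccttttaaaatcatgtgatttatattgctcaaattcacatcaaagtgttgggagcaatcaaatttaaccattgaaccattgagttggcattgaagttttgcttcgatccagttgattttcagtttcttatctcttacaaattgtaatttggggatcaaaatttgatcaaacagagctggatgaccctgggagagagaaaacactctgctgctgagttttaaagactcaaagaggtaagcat
Sult2a8, downstream start (chr7:14438552-14438801): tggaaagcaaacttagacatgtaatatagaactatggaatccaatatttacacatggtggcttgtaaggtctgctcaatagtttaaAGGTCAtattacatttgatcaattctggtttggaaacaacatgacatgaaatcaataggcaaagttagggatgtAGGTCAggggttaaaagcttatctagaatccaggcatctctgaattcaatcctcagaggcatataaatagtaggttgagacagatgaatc
Sult1b1 (chr5:87538196-87538445): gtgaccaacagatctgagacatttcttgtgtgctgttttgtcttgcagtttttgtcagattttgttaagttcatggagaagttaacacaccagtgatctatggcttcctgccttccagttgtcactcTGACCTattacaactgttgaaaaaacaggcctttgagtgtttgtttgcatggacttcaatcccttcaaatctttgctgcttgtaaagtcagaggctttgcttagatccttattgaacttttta
The upstream start of Sult2a8 had no match, the downstream start had 2 and this start of Sult1b1 had 1. A second listed start of Sult1b1, with its window at chr5:87536223-87536472, had none. RefSeq promoters were found for 7 of the 10 members, with 9 start sites, and 3 of the 9 held a half-site on either strand, against 14% of the 32851 mouse promoters searched. TTCNNNGAA, the STAT5 motif, was found before Sult3a1 alone among the 9 and in 7.02% of all promoters. TGTTTAC, a motif of FOXA factors, and the palindrome of HNF1 were in none of the 9, and in 3.17% and 0.00913% of all promoters. A match describes letters in this window and says nothing of binding.

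Between 9632659 and 12601199 reads were counted per library. Values are normalised read counts on a scale common to all 16 libraries, and levels are compared between genes only per kilobase of exon. Hepatocyte markers (Alb, Apoa1, Ttr, Cps1, Serpina1a, Tat and Hnf4a) were detected in all libraries, while Prss1, Cpa1 and Pnlip of the pancreas and Cdx2 of the gut had no read. One library stood apart for several members by Dixon's ratio, a test for single outliers. This was library 11 of EtOH IMC, in which Sult2a7, Sult2a8 and Sult3a1 were far above the other 3 libraries of the group. The IMC differences of these members in ethanol-fed mice are given with and without it. Library 16 was the lowest of Pair control for Sult1d1, Sult1e1, Sult2a1, Sult2a2 and Sult2a7. Library 8 was the highest of Pair IMC for Sult1b1, Sult3a1 and Sult5a1. Dixon's ratio flagged neither library. Library numbers 1 to 8 are those of Pair IMC and EtOH control and numbers 9 to 16 those of Pair control and EtOH IMC, so a comparison of IMC or of ethanol within 1 arm cannot be told apart from this numbering. The difference of the IMC effect between the diets sets numbers 9 to 16 against 1 to 8 and cannot be told apart from it in any fit. In bulk liver, fewer cells of a type cannot be told apart from less RNA per cell.

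Members spanned a wide range of levels. Per kilobase of exon, the mean over 16 libraries was highest for Sult2a1 (9137) and Sult2a2 (9098), followed by Sult1a1 (4226), Sult1d1 (1651), Sult2a8 (649), Sult3a1 (226), Sult1b1 (93.1), Sult1e1 (29.2), Sult2a7 (24.5) and Sult5a1 (11.2). The annotated transcript of Sult2a2 is short, at 741 bases, so its place beside Sult2a1 depends on that length. Sult2a1 stood above 99.6% and Sult5a1 above 20.5% of the 12537 genes tested. All 10 members passed the filter, which required 4 or more libraries at a value of 10 or higher, Sult1e1 with 8 libraries, Sult2a7 with 13, Sult5a1 with 14, Sult3a1 with 15 and the others with all 16.

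Summed over the members, the level per kilobase was 26206 ± 3616 in Pair control (SD, n = 4), 19516 ± 1584 in Pair IMC, against 28766 ± 4155 in EtOH control and, with IMC, 26089 ± 1130.4 in EtOH IMC. Sult2a1 and Sult2a2 together made up most of each sum. Sult2a8 held 4.77% ± 0.825 of the sum in Pair control, 1.58% ± 0.906 in Pair IMC, against 3.50% ± 0.482 in EtOH control and, with IMC, 0.233% ± 0.306 in EtOH IMC. The plot of the summed level shows that the less abundant members, which differed most between groups, add little to its height.

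**Figure D1:**
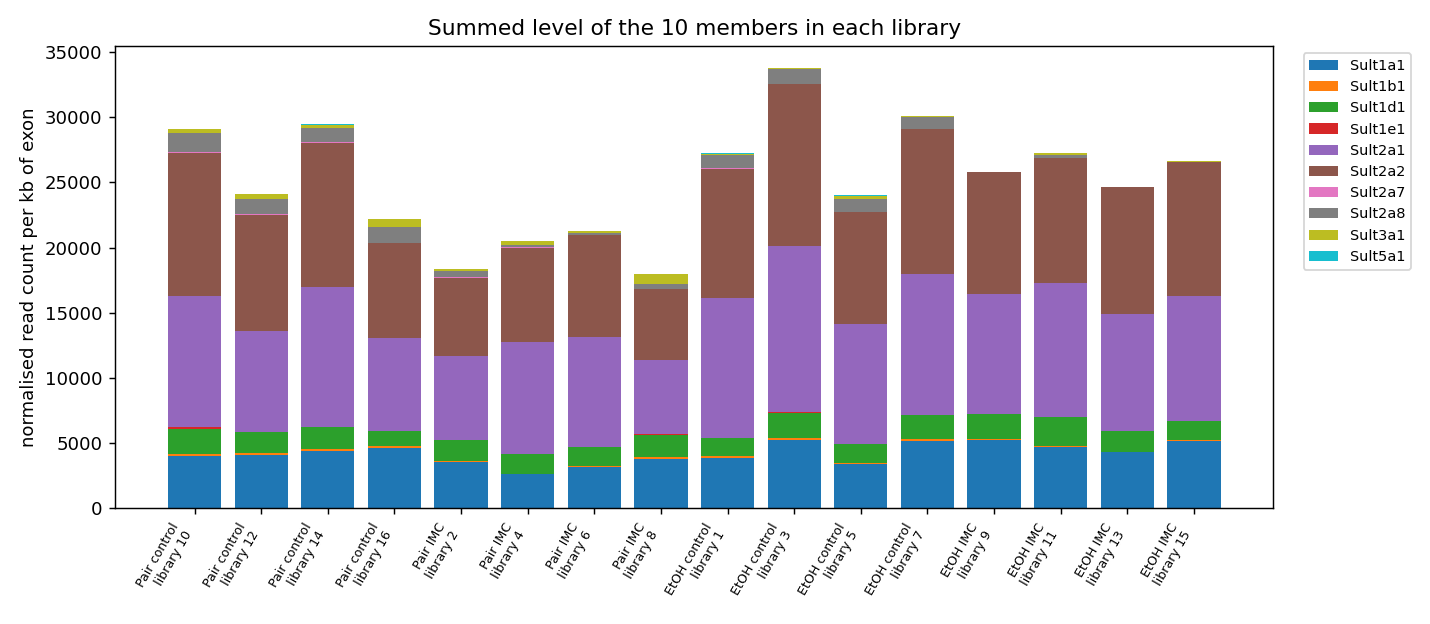
Summed level of the 10 members per kilobase of exon in each of the 16 libraries (vertical axis, normalised read count per kb), stacked by gene. The Pair IMC bars lie between 17971 and 21234 and the EtOH IMC bars between 24655 and 27285, and Sult2a1, Sult2a2, Sult1a1 and Sult1d1 fill most of every bar.

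The members were chosen with results of these data known, so their differences are given as a description, with the standard error and whether the gene passed an adjusted p of 0.05 in the fit across all genes (limma), and with no p of their own. Among the 10 members, 5 fell and 0 rose with IMC in pair-fed mice, where 9.48% of all 12537 genes tested passed, 5.17% lower and 4.32% higher. With IMC in ethanol-fed mice 3 members fell and 0 rose, where 21.5% of all genes passed, 11.1% lower and 10.4% higher. Ethanol in control mice had 1 member higher and 0 lower, where 11.9% of all genes passed, 6.33% higher and 5.54% lower. Ethanol in IMC-treated mice had 2 members higher and 3 lower, where 16.4% of all genes passed, 7.86% higher and 8.57% lower. The median log2 difference over the members with IMC was -0.63 in pair-fed mice, and -1.07 with ethanol, while the median of all tested genes was 0.00 in both diets. By edgeR with upper quartile factors, IMC in pair-fed mice had 427 of all genes higher and 777 lower, against 541 and 648 by limma. On the deposited scale, ethanol had 2801 higher and 199 lower in control mice and 3183 higher and 441 lower in IMC-treated mice, against 794 and 694, and 985 and 1075, on the common scale. These counts describe a chosen list and show nothing particular to it, and the 4 comparisons share control samples.

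**Figure D2:**
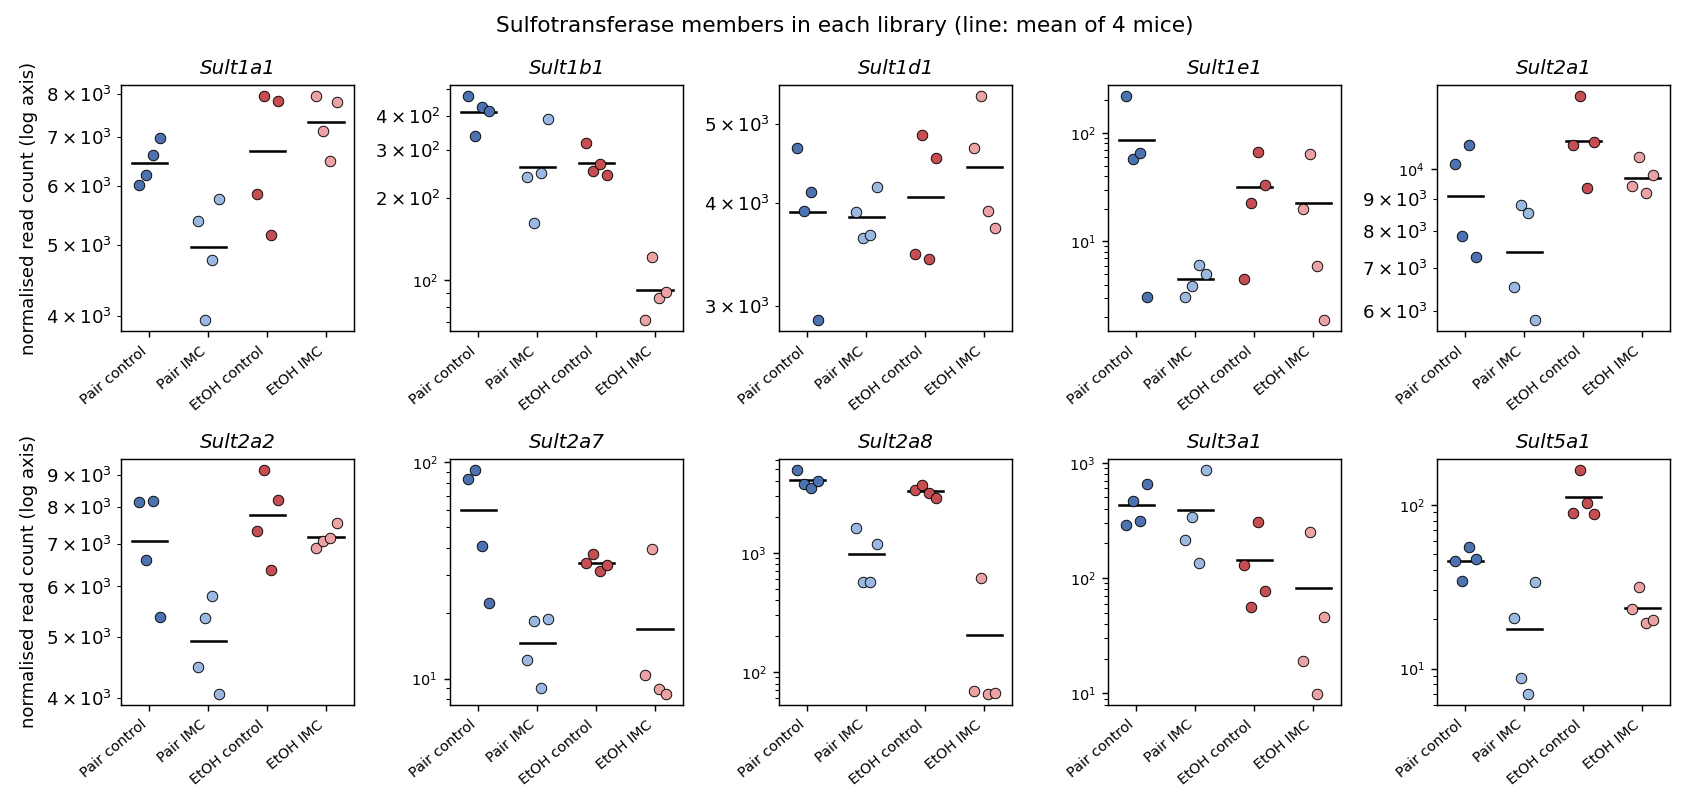
Normalised read count (log axis) of each member in each of the 16 libraries, by group, with a line at the mean of 4 mice. In Sult2a8 the EtOH IMC points lie at 65.7, 66.2, 69.7 and 619, and both vehicle groups lie at 2860 or higher.

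Sult2a8, a bile acid sulfotransferase, had the largest IMC difference of any member, in ethanol-fed mice (ENSMUSG00000030378, chr7:14410686-14446769). In the Pair control libraries its normalised read counts were 4960, 3757, 3511 and 4023, and in Pair IMC they were 1604, 565, 569 and 1179. In EtOH control they were 3355, 3734, 3154 and 2860, and in EtOH IMC 69.7, 619, 65.7 and 66.2. The vehicle and IMC groups were apart in both diets, and 3 of the 4 EtOH IMC libraries lay far below the Pair IMC libraries. The log2 difference with IMC was -2.19 ± 0.52 (SE) in pair-fed and -4.78 ± 0.52 in ethanol-fed mice, 4.56-fold and 27.5-fold lower, and both passed. The call in pair-fed mice was lost without library 4 or 6 of Pair IMC, at -1.97 and -1.98. Without library 11, the difference in ethanol-fed mice was -5.58.

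The IMC effect on Sult2a8 was larger in ethanol-fed than in pair-fed mice by -2.60 ± 0.74 on the log2 scale, which did not pass, where 1.11% of all genes passed, 0.319% higher and 0.79% lower. Without library 11 it was -3.39 and passed. This difference cannot be told apart from the library numbering. Ethanol in control mice gave -0.30 ± 0.52 for Sult2a8, with overlapping groups. Ethanol in IMC-treated mice gave -2.90 ± 0.52, which passed, with library 11 inside the Pair IMC range and the 3 other EtOH IMC libraries below it. Without library 11 this was -3.70. DESeq2 gave no adjusted p for Sult2a8 in any comparison.

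The other low member of this cluster, Sult2a7, lies 47.5 kb from Sult2a8 by start site (ENSMUSG00000094156, chr7:14465051-14494230). Its values were 83.6, 92.0, 41.1 and 22.4 in Pair control and 12.2, 18.5, 9.02 and 18.9 in Pair IMC. In EtOH control they were 34.1, 37.4, 31.4 and 33.3, and in EtOH IMC 10.3, 39.8, 8.96 and 8.51. The pair-fed groups were apart and the ethanol-fed groups overlapped through library 11 alone. The log2 difference with IMC was -1.81 ± 0.45 in pair-fed mice, which passed, and -1.27 ± 0.45 in ethanol-fed mice, which did not. The former was lost without library 10 or 12 of Pair control or 6 of Pair IMC, at -1.61 to -1.54. The latter also passed, at the same value, without library 10, 12 or 16 of Pair control. Without library 11 the value in ethanol-fed mice was -1.77 and passed. Neither ethanol comparison of Sult2a7 passed (-0.59 ± 0.45 in control and -0.06 ± 0.45 in IMC-treated mice).

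Sult2a1 and Sult2a2, the abundant hydroxysteroid sulfotransferases, moved far less. Sult2a2 (chr7:13733505-13779636) had 8148, 6616, 8188 and 5378 in Pair control, 4477, 5351, 5794 and 4061 in Pair IMC, against 7343, 9172, 6382 and 8227 in EtOH control and, with IMC, 6902, 7091, 7167 and 7566 in EtOH IMC. All but 1 Pair control library lay above the Pair IMC range. The log2 difference of Sult2a2 with IMC was -0.52 ± 0.14 in pair-fed mice, which passed, and -0.10 ± 0.14 in ethanol-fed mice, which did not. Ethanol in IMC-treated mice raised it by 0.56 ± 0.14, with the groups apart. Leaving out any 1 of libraries 10 and 14 of Pair control or 2 and 8 of Pair IMC ended the call of Sult2a2 in pair-fed mice, with values from -0.48 to -0.43.

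For Sult2a1 (ENSMUSG00000078798, chr7:13796246-13837409), group means were 9069 ± 1779 in Pair control, 7417 ± 1476 in Pair IMC, against 11085 ± 1512 in EtOH control and, with IMC, 9708 ± 548 in EtOH IMC (SD, n = 4). No comparison of Sult2a1 passed, and its log2 differences ran from -0.29 ± 0.15 for IMC in pair-fed mice to 0.41 ± 0.15 for ethanol in IMC-treated mice, where the groups did not overlap and the value was 0.50 and passed without library 4 of Pair IMC. Over 16 libraries Sult2a1 and Sult2a2 had a Pearson r of 0.936, and within groups 0.931. This is a description of 2 genes that share reads.

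**Figure D3:**
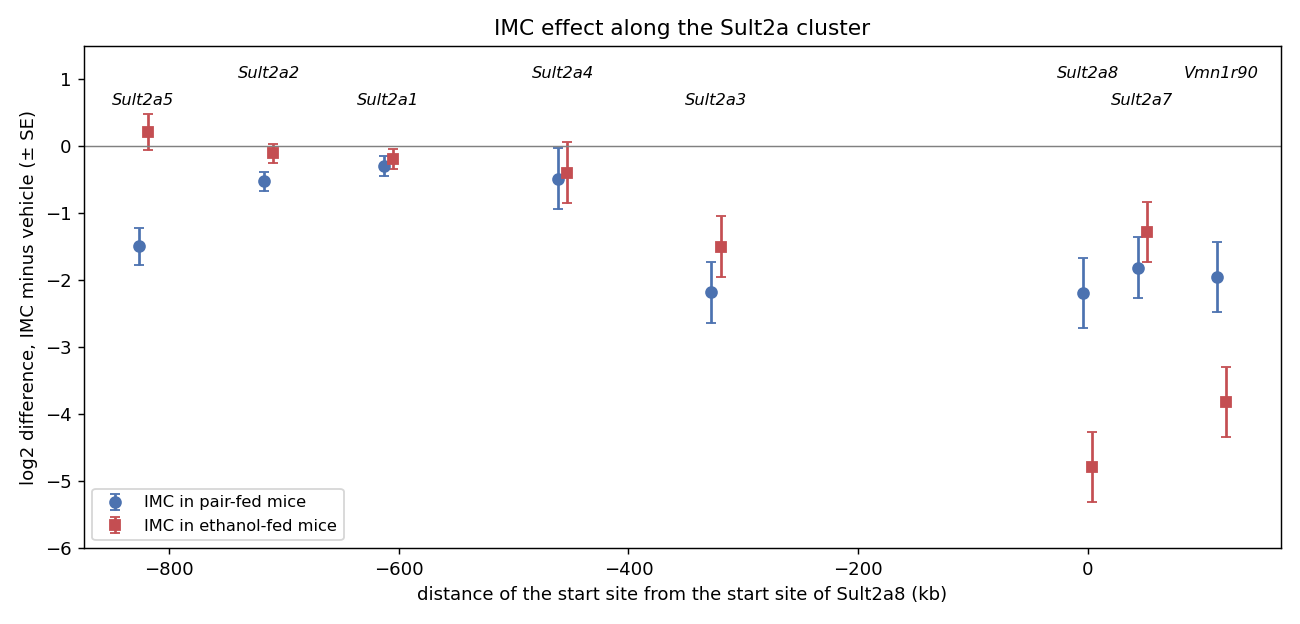
Log2 difference between IMC and vehicle (vertical axis, ± SE) of each tested gene from Sult2a5 to Vmn1r90 on chromosome 7, in pair-fed and ethanol-fed mice, against the distance of its start site from that of Sult2a8 (kb). Values run from 0.22 for Sult2a5 in ethanol-fed mice to -4.78 for Sult2a8 in ethanol-fed mice.

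Along the cluster the values were uneven, as the plot by distance shows. Of the Sult2a genes that are not members, Sult2a3 fell by 2.18 ± 0.45 with IMC on the log2 scale in pair-fed mice (adjusted p = 0.00688, limma) and by 1.5 ± 0.45 in ethanol-fed mice (adjusted p = 0.0257, limma). Its values were 2308, 1103, 2307 and 332 in Pair control and 236, 247, 376 and 208 in Pair IMC. In EtOH control they were 1476, 2497, 1610 and 2196, and in EtOH IMC 671, 1216, 554 and 449. The call in ethanol-fed mice was lost without library 3, 7, 13 or 15 and in edgeR and DESeq2 without library 15. Under IMC, ethanol raised Sult2a3 by 1.37 ± 0.45 (adjusted p = 0.0478, limma), which was lost in 13 of 16 fits that left out 1 library, with values of 1.08 to 1.56 over the 16. Sult2a5 fell by 1.49 ± 0.27 in pair-fed mice (adjusted p = 0.00312, limma) and was 0.22 ± 0.27 in ethanol-fed mice (adjusted p = 0.608, limma), and the difference between the diets was 1.71 ± 0.38 (adjusted p = 0.042, limma). That difference was 1.56 without library 11 (adjusted p = 0.0593, limma), and its call was lost in 15 of the 16 fits that each left out 1 library, with no filter and with no mean-variance trend. It cannot be told apart from the library numbering. Sult2a5 also fell by 1.13 ± 0.27 with ethanol in control mice (adjusted p = 0.0134, limma), a call that was lost without library 5 of EtOH control. These values of Sult2a5 are uncertain to the extent of the reads it shares with Sult2a2, which was far more abundant. Sult2a4, at 2.52 to 16.1 per library, passed in no comparison.

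Vmn1r90, annotated as a vomeronasal receptor gene 116.7 kb from the start of Sult2a8, was noticed after its values were seen. It had 8 to 47 reads in each vehicle library, 1 to 6 in Pair IMC and 0 to 2 in EtOH IMC. Its log2 difference with IMC was -1.95 ± 0.52 in pair-fed mice (adjusted p = 0.0262, limma) and -3.82 ± 0.52 in ethanol-fed mice (adjusted p = 0.000111, limma). No other gene that lies between Sult2a5 and Vmn1r90 and is no Sult gene was tested.

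Sult1b1, Sult1d1 and Sult1e1 are neighbours on chromosome 5; their values in the 4 groups are given in turn. Sult1b1, which sulfates thyroid hormones and other phenols (ENSMUSG00000029269, chr5:87513339-87538195), had 473, 337, 431 and 418 in Pair control and 238, 162, 248 and 389 in Pair IMC. In EtOH control it had 319, 251, 265 and 243, and in EtOH IMC 71.4, 121, 85.6 and 90.8. All 4 EtOH IMC libraries lay below every other library of the study. The log2 difference of Sult1b1 with IMC was -0.73 ± 0.20 in pair-fed mice, where the groups overlapped through library 8, and -1.56 ± 0.20 in ethanol-fed mice, and both passed. Leaving out 1 of 6 libraries (10, 14 or 16 of Pair control, 2, 4 or 6 of Pair IMC) ended the call in pair-fed mice, at -0.74 to -0.53. Ethanol gave -0.61 ± 0.20 in control mice, which did not pass although the groups were apart (it passed without library 12, 4, 8 or 11, at -0.71 to -0.61), and -1.44 ± 0.20 in IMC-treated mice, which passed.

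Sult1d1, a catecholamine sulfotransferase (ENSMUSG00000029273, chr5:87554645-87569027), passed in no comparison. Its group means were 3898 ± 750 in Pair control, 3844 ± 261 in Pair IMC, against 4069 ± 733 in EtOH control and, with IMC, 4429 ± 766 in EtOH IMC (SD, n = 4), and all groups overlapped. The log2 difference with IMC was 0.00 ± 0.15 in pair-fed and 0.12 ± 0.15 in ethanol-fed mice.

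Sult1e1, the oestrogen sulfotransferase (ENSMUSG00000029272, chr5:87575969-87591594), had the largest standard error of the members, while its 4 Pair IMC libraries lay close together. In the Pair control libraries it had 218, 57.7, 65.7 and 3.05, and in Pair IMC 3.05, 3.90, 6.02 and 5.04. In EtOH control it had 4.49, 22.5, 66.1 and 33.3, and in EtOH IMC 19.8, 63.6, 5.97 and 1.89. Each Pair IMC library was low, and 1 Pair control library was as low as they were, so the groups overlapped. The log2 difference of Sult1e1 with IMC in pair-fed mice was -3.00 ± 1.03 and did not pass. Without library 16 of Pair control it was -4.14 and passed, and edgeR and DESeq2 on whole reads called it as well.

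Sult1a1, the main phenol sulfotransferase of liver (ENSMUSG00000030711, chr7:126672865-126676432), passed in 1 comparison, ethanol in IMC-treated mice. Its values were 6019, 6219, 6615 and 6988 in Pair control, 5389, 3949, 4759 and 5758 in Pair IMC, against 5861, 7957, 5150 and 7841 in EtOH control and, with IMC, 7956, 7144, 6485 and 7802 in EtOH IMC. Pair IMC lay below Pair control without overlap, at a log2 difference of -0.39 ± 0.14 that did not pass, although it did without library 8, at -0.47. In ethanol-fed mice the IMC difference was 0.15 ± 0.14. Ethanol raised Sult1a1 by 0.58 ± 0.14 in IMC-treated mice and gave 0.03 ± 0.14 in control mice.

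Sult3a1, an amine sulfotransferase that is higher in female than in male mouse liver (ENSMUSG00000069668, chr10:33857721-33879532), was lowest in the ethanol-fed mice. It had 286, 466, 311 and 659 in Pair control, 216, 338, 134 and 867 in Pair IMC, against 129, 56.7, 309 and 76.7 in EtOH control and, with IMC, 18.9, 252, 9.96 and 46.3 in EtOH IMC. All neighbouring groups overlapped, and within Pair IMC the highest library was 6.45 times the lowest. Ethanol lowered Sult3a1 by a log2 difference of -2.92 ± 0.75 in IMC-treated mice, which passed, and gave -1.81 ± 0.75 in control mice, which did not. Without library 13 of EtOH IMC the former was -2.30 and did not pass, and without library 11 it was -3.81. It did not pass either with edgeR and upper quartile factors (-2.18), with DESeq2 (-2.25), or on whole reads without library 15 by edgeR or DESeq2 (-2.05 by the latter). The IMC differences of Sult3a1 were -0.42 ± 0.75 in pair-fed and -1.53 ± 0.75 in ethanol-fed mice, and neither passed. The second was -2.41 and passed without library 11. The neighbouring Sult3a2, whose coding sequence is 90.9% identical, fell by 2.95 ± 0.96 with ethanol under IMC (adjusted p = 0.0424, limma), and by 4.03 without library 11. This call was lost in 10 of 12 other settings, among them edgeR and DESeq2, and in 6 of 16 fits that left out 1 library.

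Sult5a1, whose substrates are little known (ENSMUSG00000000739, chr8:123140192-123158315), fell with IMC in both diets and rose with ethanol in control mice. Its values were 45.7, 34.3, 55.2 and 46.8 in Pair control, 20.3, 8.77, 7.02 and 34 in Pair IMC, against 89.7, 164, 103 and 87.8 in EtOH control and, with IMC, 23.2, 31.4, 18.9 and 19.9 in EtOH IMC. Groups were apart for IMC in both diets and for ethanol in control mice. The log2 difference of Sult5a1 with IMC was -1.56 ± 0.36 in pair-fed and -2.18 ± 0.36 in ethanol-fed mice, and the former was -1.34 and not called without library 4 of Pair IMC. With ethanol it was 1.24 ± 0.36 in control mice, which passed, and 0.62 ± 0.36 in IMC-treated mice, which did not, although it was 1.01 and passed without library 8 of Pair IMC. The call with ethanol was lost without library 10, 12 or 16 of Pair control or library 3 or 5 of EtOH control, at 1.04 to 1.26.

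**Figure D4:**
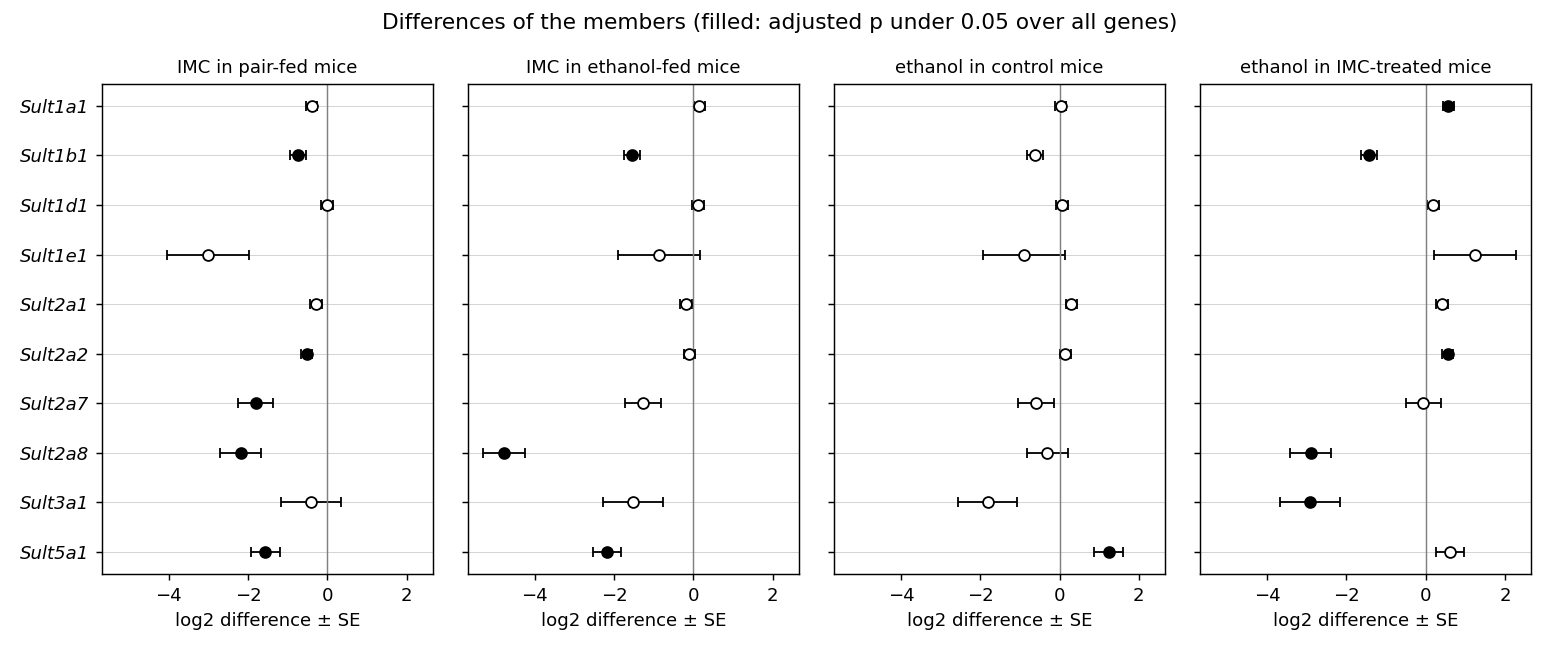
Log2 difference ± SE (horizontal axis) of each member in 4 comparisons, with filled points where the adjusted p over all genes was under 0.05. With IMC the filled points, 5 in pair-fed and 3 in ethanol-fed mice, all lie below 0, and the largest is Sult2a8 at -4.78 in ethanol-fed mice.

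Groups were apart, with no overlap of single libraries, for 4 members with IMC in pair-fed mice and for 3 in ethanol-fed mice, each lower. Of all genes, 14.3% were apart in pair-fed mice (6.94% lower, 7.38% higher) and 25.3% in ethanol-fed mice (12.9% lower, 12.3% higher). For ethanol in control mice 1 member was apart and higher and 1 lower, where 19% of all genes were apart (9.92% higher, 9.07% lower). For ethanol in IMC-treated mice 3 members were apart and higher and 1 lower, where 19.2% of all genes were apart (9.35% higher, 9.83% lower). Averaged over both diets, an estimate in which library numbers are balanced, IMC lowered Sult1b1 (-1.14), Sult2a2 (-0.31), Sult2a7 (-1.54), Sult2a8 (-3.49) and Sult5a1 (-1.87), where 28.1% of all genes passed, 14% lower and 14.1% higher. The averaged call of Sult2a2 was lost without library 10, 14, 2, 8, 3 or 7, at -0.30 to -0.27, and after quantile normalization, at -0.25. No member passed for the difference of the IMC effect between the diets by limma. At an unadjusted p under 0.05, 1913 of all genes differed there, of which 139 passed adjustment. On the 16 libraries edgeR called 0 of the 10 members. DESeq2 also called 0, but it gave no adjusted p for Sult2a8 and so could not call that member.

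Among marker lists, the summed level of 6 adipocyte markers moved with IMC: it ranged from 12341 to 22197 in Pair control, 2778 to 9598 in Pair IMC, against 19886 to 21912 in EtOH control and, with IMC, 2593 to 5876 in EtOH IMC. Nearly all of that sum was Car3, which hepatocytes also express, and the defining markers Adipoq, Plin1, Lep and Retn had at most 11 in any library. The sum of 6 lymphocyte markers was 94.1 to 136 in EtOH IMC, below both EtOH control (176 to 235) and Pair IMC (158 to 215). Most of it was Ptprc (86.4 to 116 in EtOH IMC), the only 1 of the 6 that was tested. The sum of 6 stellate cell markers was 4230 to 5075 in EtOH control, above both EtOH IMC (2722 to 3675) and Pair control (2900 to 4159). Cholangiocyte markers, 6 in number, summed to 710 to 1222 in Pair control and 616 to 700 in Pair IMC. The 5 acinar markers in the table summed to 99.8 to 124 in Pair control and 77.0 to 98.6 in Pair IMC, with the 3 named above at 0. Most of the acinar sum was Cela1 (mean 113 in Pair control and 78.3 in Pair IMC). The mean of Cela2a went the other way (0.764 in Pair control and 10.4 in Pair IMC). The 7 hepatocyte markers summed to 1560971 to 1680476 in Pair IMC and 916461 to 1220245 in EtOH IMC. Most of that sum was Alb (mean 1412963 in Pair IMC and 868356 in EtOH IMC), while the means of Cps1 and Tat were higher in EtOH IMC. For ethanol in IMC-treated mice 0 of the 7 passed, where 16.4% of all genes did, and 4 of the 7 were below 0. Macrophage, endothelial and enterocyte sums overlapped in each of the 4 comparisons. No cell type had a defining marker at 0 in all libraries except acinar cells and enterocytes (Cdx2). The part of any of these in the members' values was not tested.

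The sulfate donor is made and handled by other genes, which were compared next. This list and those that follow were chosen with earlier results of these data known, so their counts are a description. Of 10 tested genes for sulfate supply, 4 fell and 0 rose with IMC in ethanol-fed mice, where 11.1% of all genes fell and 10.4% rose, and 0 passed in pair-fed mice by limma, where 9.48% did. Papss2, the PAPS synthase abundant in liver, had 4464, 4247, 4082 and 3593 in Pair control and 2746, 2025, 2711 and 4519 in Pair IMC. In EtOH control it had 4537, 5081, 4256 and 4860, and in EtOH IMC 1737, 1674, 2127 and 1652. All 4 EtOH IMC libraries lay below the EtOH control libraries. Papss2 fell by 1.39 ± 0.17 with IMC on the log2 scale in ethanol-fed mice (adjusted p = 3.76e-05, limma), and the difference was -0.51 ± 0.17 in pair-fed mice (adjusted p = 0.0632, limma). The difference between the diets was -0.88 ± 0.24 (adjusted p = 0.0832, limma). Papss1, the other synthase, was at 112 to 174 in each library and rose with ethanol under IMC by 0.46 ± 0.11 (adjusted p = 0.0114, limma).

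The other 3 that fell with IMC in ethanol-fed mice were Suox, which oxidises sulfite to sulfate, Slc26a1, a sulfate transporter of hepatocytes, and Ethe1, which acts earlier in sulfide oxidation. Suox fell by 0.59 ± 0.11 (adjusted p = 0.00146, limma), Slc26a1 by 0.55 ± 0.12 (adjusted p = 0.00475, limma) and Ethe1 by 0.88 ± 0.25 (adjusted p = 0.021, limma), which was lost without library 3 of EtOH control. In control mice ethanol raised Suox by 0.64 ± 0.11 (adjusted p = 0.00195, limma), Ethe1 by 0.88 ± 0.25 (adjusted p = 0.0321, limma) and Bpnt1, which breaks down the spent cofactor, by 0.46 ± 0.09 (adjusted p = 0.00317, limma). The rise of Ethe1 was lost in 6 of 16 fits that left out 1 library, with values of 0.59 to 1.11. Slc35b2, which carries PAPS into the Golgi, fell by 0.50 ± 0.12 with ethanol in control mice (adjusted p = 0.0103, limma), and Slc35b3, another such carrier, fell by 0.30 ± 0.09 with ethanol under IMC (adjusted p = 0.0296, limma). The call of Slc35b2 was lost on the deposited scale, as was that of Slc35b3, which was also lost without library 2, 8, 11 or 13. Slc26a2 and Impad1 passed in no comparison. Slc13a1 and Slc13a4 did not reach the filter.

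**Figure D5:**
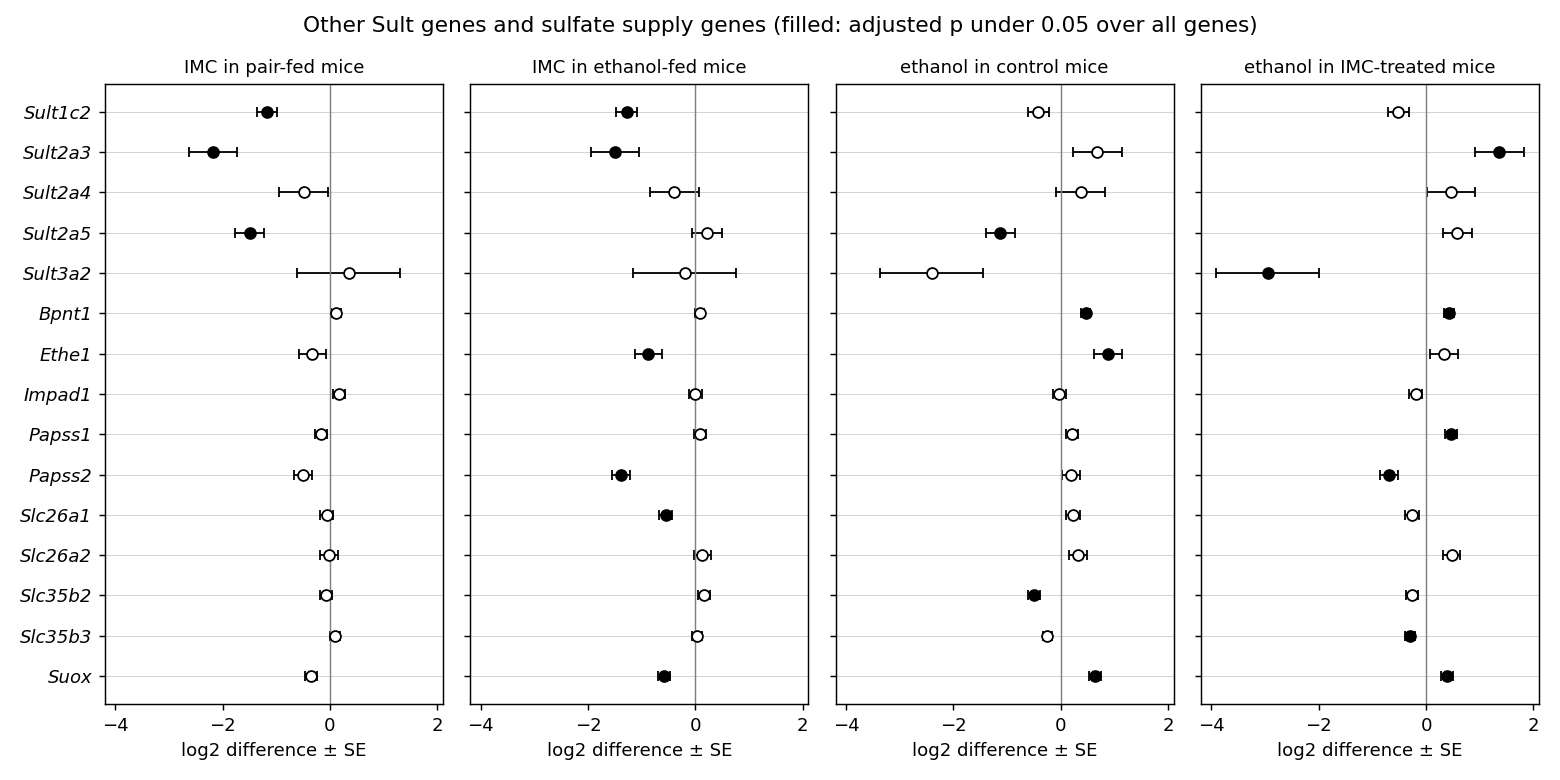
Log2 difference ± SE (horizontal axis) of the 5 tested Sult genes that are not members and the 10 tested sulfate supply genes in 4 comparisons, with filled points where the adjusted p over all genes was under 0.05. In ethanol-fed mice IMC lowered Papss2 by 1.39, Ethe1 by 0.88, Suox by 0.59 and Slc26a1 by 0.55.

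Outside the members, 5 of 11 Sult genes in the table were tested. Sult1c2, of the phenol branch, had 191 to 269 in Pair control, 79.9 to 119 in Pair IMC, against 155 to 185 in EtOH control and, with IMC, 46.8 to 95.8 in EtOH IMC. The groups were apart in both diets, and Sult1c2 fell by 1.17 ± 0.19 with IMC in pair-fed mice (adjusted p = 0.00163, limma) and by 1.27 ± 0.19 in ethanol-fed mice (adjusted p = 0.000283, limma). Sult1c1 had no read in any library, which allows at most 3 reads per library. Sult2a6, Sult2b1, Sult4a1, Sult6b1 and Sult6b2 had at most 3 reads in each library.

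Sulfatases and Golgi sulfotransferases, which act on sulfate elsewhere in the cell, were compared in the same way. Of 10 tested sulfatase genes and their activators, 0 passed in pair-fed mice by limma, where 9.48% of all genes did, and in ethanol-fed mice, where 21.5% did, Sumf1 rose by 0.51 and Arsk fell by 0.57. Averaged over both diets Sumf1 rose by 0.34 and Arsk fell by 0.44. With ethanol in control mice Arsa and Sumf2 rose, by 0.52 and 0.48. Of 15 tested Golgi sulfotransferases, 0 passed for IMC in either diet by limma, and averaged over both diets, where 28.1% of all genes passed, Tpst2 rose by 0.29 ± 0.10 (adjusted p = 0.0451, limma) and Chst13 fell by 0.37 ± 0.12 (adjusted p = 0.0269, limma). With ethanol in control mice Chst15 rose by 0.37 and Hs6st1 fell by 0.35, and these calls were lost in 9 and 7 of 16 fits that left out 1 library.

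Of 26 tested receptors and liver factors, 2 rose and 3 fell with IMC in pair-fed mice, and 4 rose and 5 fell in ethanol-fed mice, beside 9.48% and 21.5% of all genes. Esr1, the oestrogen receptor, fell by 0.95 ± 0.17 in pair-fed mice (adjusted p = 0.00296, limma) and by 0.85 ± 0.17 in ethanol-fed mice (adjusted p = 0.00236, limma). Hnf4a, a hepatocyte factor, rose by 0.71 ± 0.13 (adjusted p = 0.00322, limma) and 0.62 ± 0.13 (adjusted p = 0.00298, limma). Foxa3 rose with IMC in ethanol-fed mice by 0.71 ± 0.11 (adjusted p = 0.000273, limma) and fell by 0.77 ± 0.11 with ethanol in control mice (adjusted p = 0.000528, limma).

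Genes known to be higher in female liver, a list of 20 without the sulfotransferases, included 7 that fell and 0 that rose with IMC in pair-fed mice and 13 that fell and 0 that rose in ethanol-fed mice. Of all genes, 5.17% fell in the former and 11.1% in the latter. The list was chosen with earlier results of these data known, so its counts are a description. It holds Cyp3a16 and Cyp3a44, which the study reported as lower with IMC in pair-fed mice. Cyp3a16 had 2917 to 5347 in Pair control, 121 to 455 in Pair IMC, against 1388 to 3918 in EtOH control and, with IMC, 0 to 45.6 in EtOH IMC. With ethanol in control mice 4 of the 20 rose and 5 fell, where 6.33% of all genes rose and 5.54% fell. Prom1 and Cyp2b13 were among those that rose, by 1.76 ± 0.32 (adjusted p = 0.00255, limma) and 1.07 ± 0.22 (adjusted p = 0.00474, limma). Cyp3a41b fell by 4.92 ± 0.68 with IMC in ethanol-fed mice (adjusted p = 0.000119, limma). Of 13 tested genes known to be higher in male liver, 1 rose and 2 fell in pair-fed mice and 1 rose and 4 fell in ethanol-fed mice. Gstp1 rose in both diets, by 1.86 ± 0.18 in ethanol-fed mice (adjusted p = 5.91e-06, limma). Selenbp2 and Nudt7 fell in both diets, by 1.4 and 0.55 in ethanol-fed mice. Susd4, with at most 4 reads in each EtOH IMC library, fell by 2.11 in ethanol-fed mice. It was low in every group, and its range in EtOH control (2.69 to 20.4) overlapped that in EtOH IMC (0.847 to 3.44).

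Likeness was measured by Pearson r of log2(value + 1) over the 16 libraries, which reflects both groups and single mice. Closest to Sult2a8 were Ces3a (0.973), Fads2 (0.973) and Acat1 (0.958), and closest to Sult1b1 were Rtn4 (0.978), Fads1 (0.965) and Gm5524 (0.964). For Sult2a7 they were Asb2 (0.928), Fdx1 (0.926) and Tmem184a (0.896), and for Sult5a1 Them7 (0.954), Ido2 (0.942) and Car5a (0.941). Sult1e1 was most like Angpt1 (0.804), Smpd3 (0.792) and Sult2a3 (0.788), and Sult3a1 like Dct (0.887), Gm33543 (0.879) and Cdkl2 (0.864). For Sult2a1 the genes were Tmem126b (0.855), Lzts3 (0.828) and Ppp1r16a (0.820), and for Sult2a2 Dnal4 (0.863), Sult2a3 (0.859) and Lzts3 (0.857). Sult1a1 was most like Abhd14a (0.886), Asl (0.863) and Ogfrl1 (0.853), and Sult1d1 like Zfp1 (0.859), Tmtc1 (0.841) and Mto1 (0.825). Between members the highest values were those of Sult2a1 with Sult2a2, given above, and of Sult1b1 with Sult2a8, at 0.910 over all libraries and 0.570 within groups.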

How the data were processed

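RNA of 16 mouse livers was sequenced by the study with a directional library kit and reads of 100 bases, which the labels call paired and the methods single-end. Per the labels and the study's methods, the authors trimmed reads (Trim Galore, FastQC), aligned them to mm10 with STAR, and normalised gene counts with edgeR. The deposited signal values are read counts divided by a size factor of each library: in each library 100% of them came within 0.01 of whole reads, and 1 read is worth 0.906 to 1.177. In library 15 this is 1.01, so whole reads there are least securely told from normalised values, and count tests were repeated without it. Ethanol-fed libraries were 0.19 higher on the log2 scale over expressed genes as deposited, so all 16 libraries were rescaled by a median ratio over 13121 genes (0.934 to 1.072). Each of 24082 gene identifiers was used once; 430 had several symbols, with the same values.

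The 12537 genes that reached 10 in 4 or more libraries were fitted by limma 3.58.1 (R 4.3.3), on log2(value + 1) and with 1 mean for each group. The empirical Bayes step followed the trend of variance with level, tests were two-sided, and p-values were adjusted by Benjamini-Hochberg (threshold 0.05). Differences on this scale understate those of low genes. In the limma fit each gene had 1 variance, pooled over all groups of 4 mice. The p-values therefore measure the spread between mice in all groups, not only in those compared. For Sult2a8 the SE was 0.52 in each of the 4 comparisons. The SD of its log2 values was 1.59 in EtOH IMC and at most 0.76 in any other group. edgeR 4.0.16 (quasi-likelihood) and DESeq2 1.42.0 on whole reads, other scales, pseudocounts, filters, and fits without each library were alternatives. On whole reads edgeR with TMM called 1170 genes (IMC, pair-fed) and 2799 genes (IMC, ethanol-fed), and without library 15 it called 1231 and 2357. Gene positions and exon lengths are from GENCODE vM21, and promoters from RefSeq. The limit for a count of 0 is 3 reads per library and covers counting error only, since reads carry no molecular identifiers. Dixon's ratio was used to look for single libraries that stood apart. Scripts were tested on simulated data.

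The members and all gene lists were chosen with earlier results of these data known. Genes named are all members, each tested gene of the other Sult and sulfate supply lists, the 2 largest and 2 smallest differences that passed in the lists of sulfatases, Golgi sulfotransferases, receptors and liver factors, and female-biased and male-biased genes, and the 3 genes most like each member.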

Additional observations from a re-analysis of the deposited data

Results flagged for a closer look

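Dixon's ratio was computed for 25 tested genes in 4 groups each, and it passed its 95% critical value in 8 of 100 groups, where chance gives about 1 in 20. Of the 8, 5 were in library 11 of EtOH IMC. There Sult2a8 was at 619.5, with the other 3 libraries at 65.7 to 69.7, and Sult2a7 was at 39.83, with the others at 8.51 to 10.3. In the same library Sult3a1 was at 251.7 (others 9.96 to 46.3), Sult3a2 at 29.66 (others 0 to 0.946) and Sult2a5 at 346.6 (others 226 to 233). The remaining 3 were Papss1 at 131.5 in library 3 of EtOH control (others 167 to 170), Impad1 at 739.4 in library 15 of EtOH IMC (others 996 to 1012) and Slc26a1 at 2072 in library 13 of EtOH IMC (others 1569 to 1609).

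The IMC effect differed between the diets, by the test of that difference, in 3 genes of the gene lists, cell type markers left aside. Of the 6 stellate cell markers, 1 was also called lower. The difference sets library numbers 9 to 16 against 1 to 8 and cannot be told apart from that numbering. For Sult2a5 the difference was 1.71 on the log2 scale (adjusted p = 0.042, limma), and 1.56 without library 11 (adjusted p = 0.0593, limma). For Hao2 and Ntrk2, of the list of genes higher in female liver, it was -1.06 (adjusted p = 0.0384, limma) and -2.86 (adjusted p = 0.0133, limma), and without library 11 it was -1.17 and -2.64. The call was lost in 15 of 16 fits that left out 1 library for Sult2a5 and in 12 of 16 for Hao2. For Ntrk2 it was lost in none of the 16, and in edgeR on whole reads without library 15.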

How the results depend on the processing

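No paired analysis was possible because each library number occurs once and no number is shared between groups. Of 1702 member values under alternatives, 26 in 7 comparisons had the other sign and 0 of these had passed; 11 were Sult2a7 with ethanol in IMC-treated mice (-0.06, at most 0.47). Apart from members left untested or without an adjusted p, the cause of the changes below was not tested. A filter at a mean of at least 100 left Sult1e1, Sult2a7 and Sult5a1 untested. For IMC in pair-fed mice 5 members passed. Of the members tested under that filter 3 did so, and 2 in a fit on only the libraries of the comparison. For IMC averaged over both diets 3 of 5 remained under that filter, where Sult2a7 and Sult5a1 were not tested. For the difference between the diets, 1 member in place of 0 passed after quantile normalization. For ethanol in control mice, 1 member became 2 with values as deposited, with edgeR (TMM), with DESeq2 and with DESeq2 on whole reads without library 15. The number was 3 in a fit on only the libraries of the comparison and 0 with no filter. It was also 0 with a mean of at least 100, where Sult5a1 was not tested. For ethanol in IMC-treated mice, 5 became 3 with DESeq2, with or without library 15, where Sult2a8 had no adjusted p. Of the sulfate supply genes, IMC in pair-fed mice gave 2 in place of 0 after quantile normalization, and 1 with edgeR (upper quartile) and with DESeq2, with or without library 15; DESeq2 also gave 1 in place of 0 for the difference between the diets, with or without library 15. Leaving out each library in turn gave 2 to 5 members for IMC in pair-fed mice (2 without library 10, 4 or 6), 3 to 5 in ethanol-fed mice (5 without library 11), 4 to 7 for the average, 0 to 1 for the difference between the diets (1 without library 11), 0 to 3 for ethanol in control mice (0 without library 10, 16, 3 or 5, and 3 without library 11) and 4 to 6 in IMC-treated mice. For sulfate supply the ranges were 0 to 2 (2 without library 8), 3 to 4, 4 to 4, 0 to 1 (1 without library 4), 3 to 4 and 3 to 6 (3 without library 2 or 11). Over all genes, counts that moved by more than 1.5 times were 691 in place of 1189 for IMC in pair-fed mice on only the libraries of the comparison, 3000 in place of 1488 and 3624 in place of 2060 for ethanol in control and in IMC-treated mice with values as deposited, 1352 in place of 2060 with edgeR without library 15, and, for the difference between the diets (139), 340 with DESeq2 (256 without library 15), 72 with edgeR without library 15, 80 with no filter and 82 with no mean-variance trend. As deposited, the median of all genes shifted by 0.18 and 0.19 on the log2 scale for ethanol in control and in IMC-treated mice. At 4 mice per group the largest standard errors were those of Sult1e1 (1.03), Sult3a1 (0.75) and Sult2a8 (0.52).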
